A study of Homo sapiens with 8 samples.

Results

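Binding of the tumour suppressor p53 was examined at 6 genes of the intrinsic (mitochondrial) cell death programme: BAX, BBC3, PMAIP1, APAF1, AEN and PIDD1. The members were the peaks that overlapped, by at least 1 bp, a fixed hg19 window around each gene in the deposited peak lists. The windows were chr19:49448000-49475000 for BAX, chr19:47714000-47746000 for BBC3, chr18:57557000-57582000 for PMAIP1, chr12:99029000-99140000 for APAF1, chr15:89154000-89186000 for AEN and chr11:789000-820000 for PIDD1. They held 109 of the 97582 peaks in the 4 lists, and these merged into 50 of 63890 sites. The data are chromatin immunoprecipitation with sequencing (ChIP-seq), made with the p53 antibody clone 1C12. All libraries came from 293T, derived from human embryonic kidney and known to express a viral large T antigen that binds p53, so the controls express it too. Cells received doxorubicin, a topoisomerase poison that breaks DNA, at 0.5 µg/ml, or PBS vehicle (20 µl), for 24 h. The 2 doxorubicin libraries are called Dox 1 and Dox 2 below and the 2 vehicle libraries PBS 1 and PBS 2. The cells were at passage 3 for both libraries numbered 1 and at passage 5 for both numbered 2, so an effect of passage and of replicate number cannot be told apart. The labels do not say whether replicates were separate experiments. The 4 input samples were not analysed here.

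p53 is a transcription factor that binds DNA as a tetramer at paired copies of a short palindromic sequence, and it activates genes that stop the cell cycle, repair DNA or kill the cell. In the intrinsic death pathway, BH3-only proteins such as PUMA (the product of BBC3) and NOXA (the product of PMAIP1) neutralise the survival proteins of the BCL2 family. BAX then forms pores in the outer mitochondrial membrane, and released cytochrome c assembles with APAF1 into the apoptosome, which activates caspase-9. AEN is a p53-induced nuclease of apoptotic cells, and PIDD1 is a death domain protein of the platform that activates caspase-2, so neither is itself a mitochondrial pore or BH3-only protein. A peak shows enrichment of DNA with the antibody and says nothing of transcription, which was not measured.

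The AEN promoter is shown first because it was the promoter among the 6 with a p53 full site, and because the AEN window held the highest fold of the 6 windows in 3 of the 4 lists. RefSeq promoters (build GRCh38.p14, 250 bases before to 50 after the gene's start) were found for all 6 genes. A full site was taken as 2 adjacent copies of the p53 decamer consensus with no spacer. The 4 central letters of each copy had to be kept (C, then A or T, then A or T, then G), and at most 2 other letters could be off. The consensus is its own reverse complement, so both strands were searched at once. Of 35116 promoters, 0.157% held a full site and 6.63% held at least 1 exact decamer. AEN had both, but its 1 exact decamer is the first copy of its full site, so they are not separate matches. The other 5 genes had neither. In the AEN promoter, chr15:88621090-88621389 on the plus strand of GRCh38.p14, the capitals mark the full site. It has 2 letters off and begins 34 bases before the start.

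AEN: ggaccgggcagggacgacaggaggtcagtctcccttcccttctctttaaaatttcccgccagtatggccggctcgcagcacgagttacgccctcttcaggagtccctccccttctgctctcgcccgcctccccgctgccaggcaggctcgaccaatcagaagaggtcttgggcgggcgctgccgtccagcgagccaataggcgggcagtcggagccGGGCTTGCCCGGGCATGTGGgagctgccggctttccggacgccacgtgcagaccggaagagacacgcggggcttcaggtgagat

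The 20 bases closest to a pair of adjacent decamers were then read from each promoter, counting every letter off, the central ones included. They are shown to compare the genes, 5′ to 3′ on the gene's strand (minus for BBC3 and PIDD1), with GRCh38.p14 coordinates. Capitals mark the letters that fit the consensus.

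AEN, chr15:88621306-88621325: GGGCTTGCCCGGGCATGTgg
PMAIP1, chr18:59899811-59899830: GAGCgTGTCCGGGCAgGTCg
BAX, chr19:48954707-48954726: GcACTTaTCgGGAgATGCTC
APAF1, chr12:98645317-98645336: GGACgTGaCTGctCTAtCCC
BBC3, chr19:47232821-47232840: AGtCAAGTTTGAGaAgtCTg
PIDD1, chr11:805336-805355: GGAggAGCCgGGAgAccTCC

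The AEN match had 2 letters off, and 0.649% of promoters came as close or closer. The PMAIP1 match had 3 letters off, reached by 5.20% of promoters, but lost central letters in both copies. Matches as close as those of the other genes were common. BAX had 4 letters off, reached by 26.0% of promoters, BBC3 and APAF1 had 5, reached by 70.5%, and PIDD1 had 6, reached by 97.4%. A match is a description of letters, and its absence says only that these letters are not in this window. The promoters are on another build than the peaks, so no match was placed relative to a peak.

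**Figure D1:**
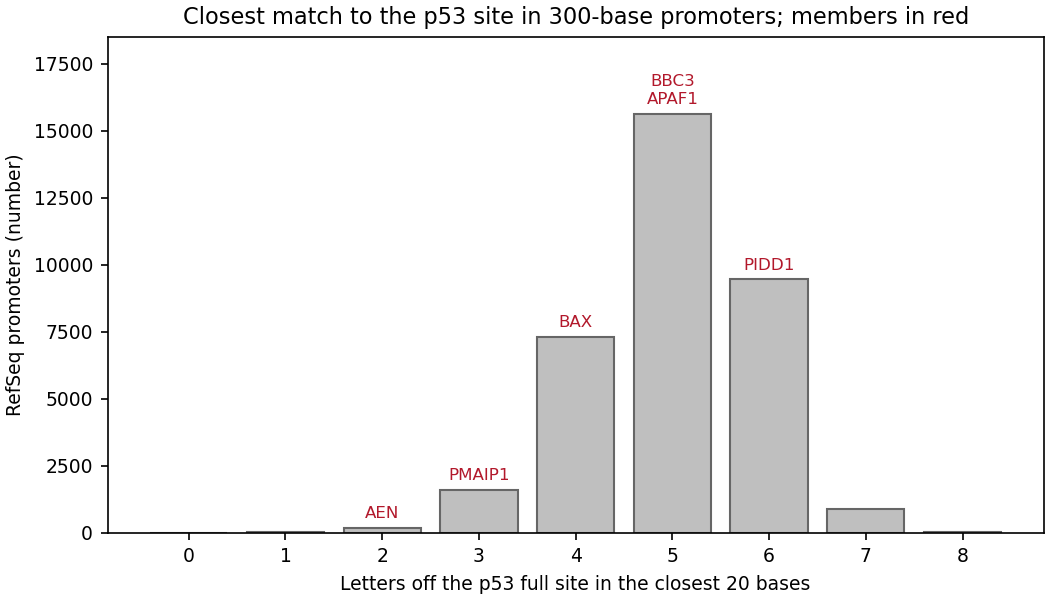
Number of RefSeq promoters (y axis) by the letters off the 20-letter p53 full site in their closest 20 bases (x axis), with the 6 genes written above their bar. AEN, with 2 letters off, stands in the thin left tail, and PIDD1, with 6, to the right of the highest bar.

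Every one of the 6 windows held at least 1 p53 peak in each of the 4 libraries, in Dox and PBS alike. The strongest peaks stood at a few positions that recurred between libraries. All windows but PMAIP1, 5 in number, held a site found in all 4 lists. Of all 30 kb tiles of the chromosomes, about the length of the windows other than APAF1 (25 to 32 kb), 4.39% held a peak in each of the 4 lists and 3.20% a site found in all 4. On chromosome 19, where the BAX and BBC3 windows lie, these shares were 18.4% and 13.7%. For tiles as long as the APAF1 window (111 kb) they were 14.6% and 9.59%. The tiles were laid regardless of genes and the windows were placed on genes, so the shares are a background and not a matched control. With peaks limited to a q-value of at most 0.05, AEN and BBC3 were the 2 windows with a peak in all 4 libraries. The share of tiles at that q was not computed, so this count has no background here.

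**Figure D2:**
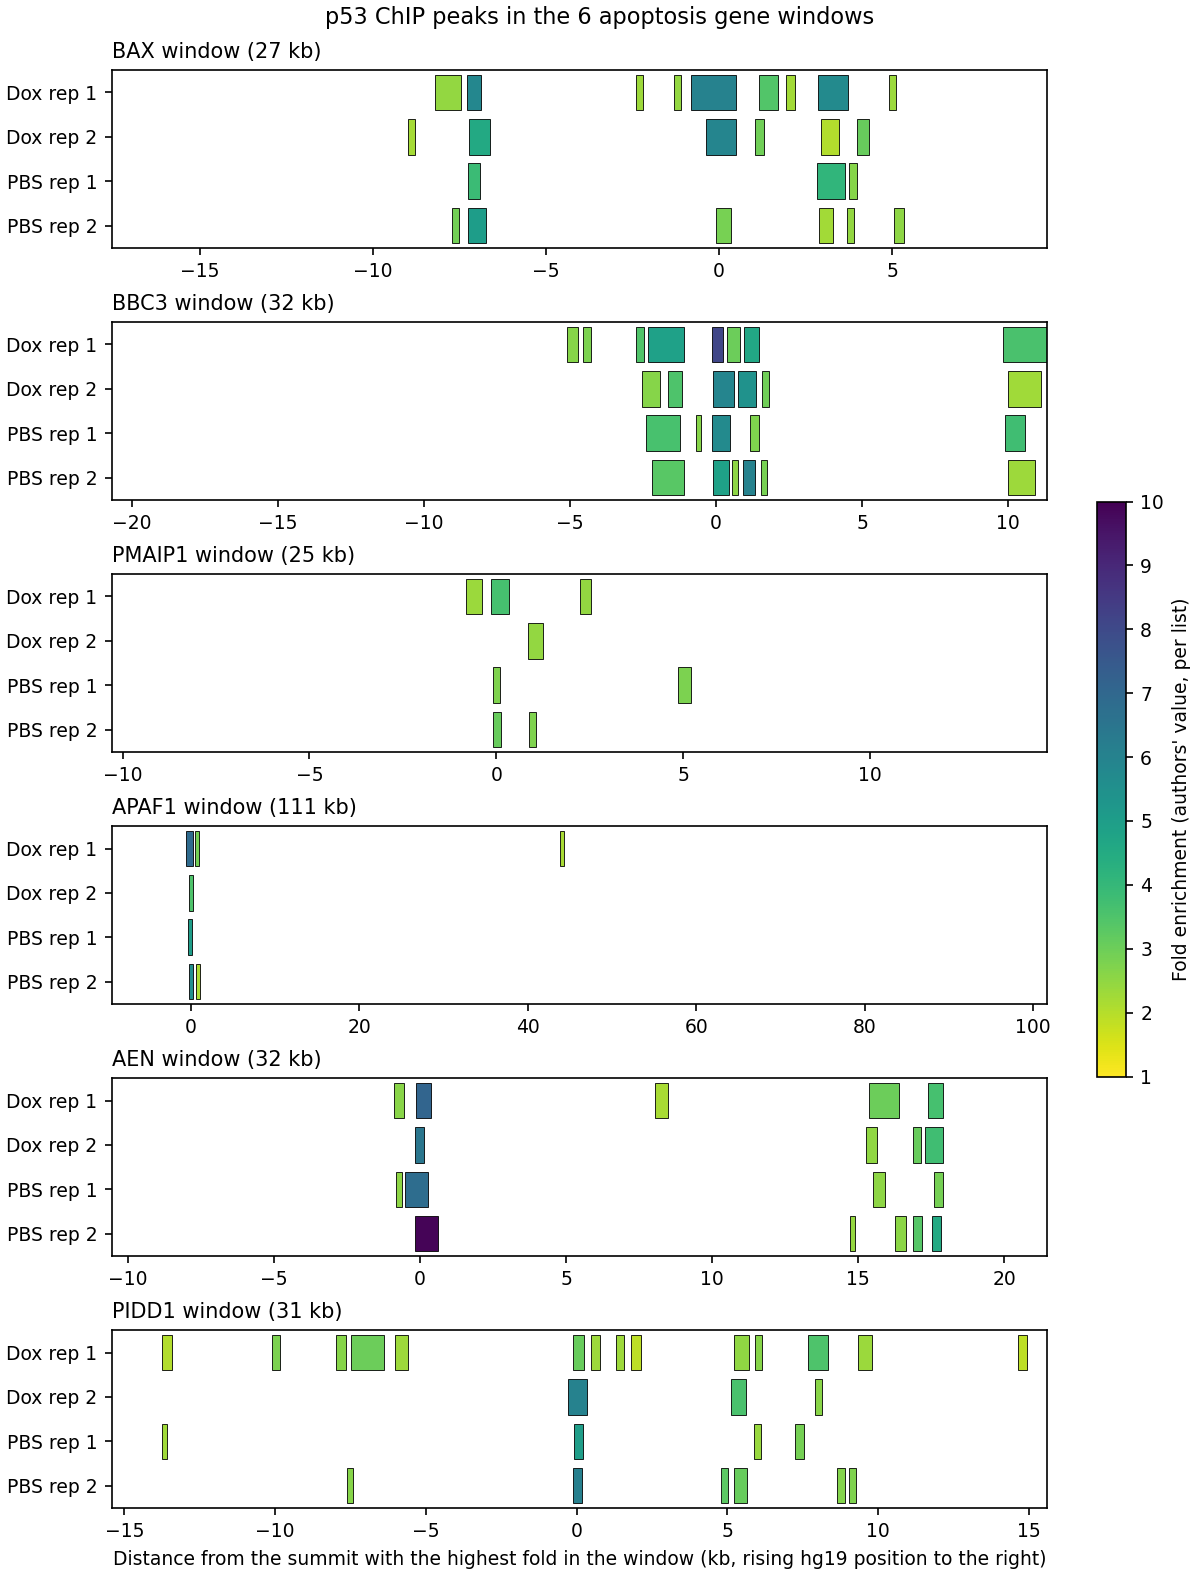
Peaks in the 6 windows by library, plotted by distance in kb from the summit with the highest fold in the window (x axis), and coloured by the authors' fold enrichment in that list. The AEN, APAF1, PIDD1 and BBC3 peaks at 0 kb recur in all 4 libraries, and the BAX peak at 0 kb has no counterpart in PBS 1.

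The number of peaks in the windows was 42 for Dox 1, 21 for Dox 2, 19 for PBS 1 and 27 for PBS 2. The conditions overlapped, and the highest count belonged to the longest list, since the lists held 46658, 16642, 11304 and 22978 peaks in that order. The mean was 31.5 ± 14.8 for the Dox libraries and 23.0 ± 5.66 for the PBS libraries (SD, n = 2 each). Their difference, 8.5, was smaller than the SD of the Dox libraries. Dox 1 exceeded PBS 1 by 23 peaks, while Dox 2 minus PBS 2 gave -6. Leaving Dox 1 out turned the difference of the means to -2.0. Per 10000 peaks of its list, the windows held 9.0 for Dox 1, 12.6 for Dox 2, 16.8 for PBS 1 and 11.8 for PBS 2, so the longest list had the lowest share and the shortest list the highest. With every list limited to its 11304 strongest peaks the counts were 18, 16, 19 and 13 in that order, and the difference of the means was 1.0. An exact two-sided permutation test of 2 libraries against 2 can give no p below 0.333, so conditions are compared here by their values. Sequencing depth is not given in the lists, so absence of a peak is absence from a list and not absence of binding.

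Peaks with a low q made up a larger share in the windows than in the whole lists. A q of at most 0.05 was reached by 8 of the 42 Dox 1 peaks in the windows, against 3.65% of that list, and by 6 of the 21 Dox 2 peaks (28.6%), against 4.84%. It was reached by 3 of the 19 PBS 1 peaks (15.8%), against 2.56%, and by 6 of the 27 PBS 2 peaks (22.2%), against 5.84%. Fold enrichment is the authors' ratio at the summit over the local background, and each list has its own scale. Its median in the windows was 2.70 for Dox 1, 3.09 for Dox 2, 2.88 for PBS 1 and 2.85 for PBS 2. Over the whole lists it was 2.47, 2.78, 2.64 and 2.85 in that order, so the typical peak in the windows was near the typical peak of its list.

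**Figure D3:**
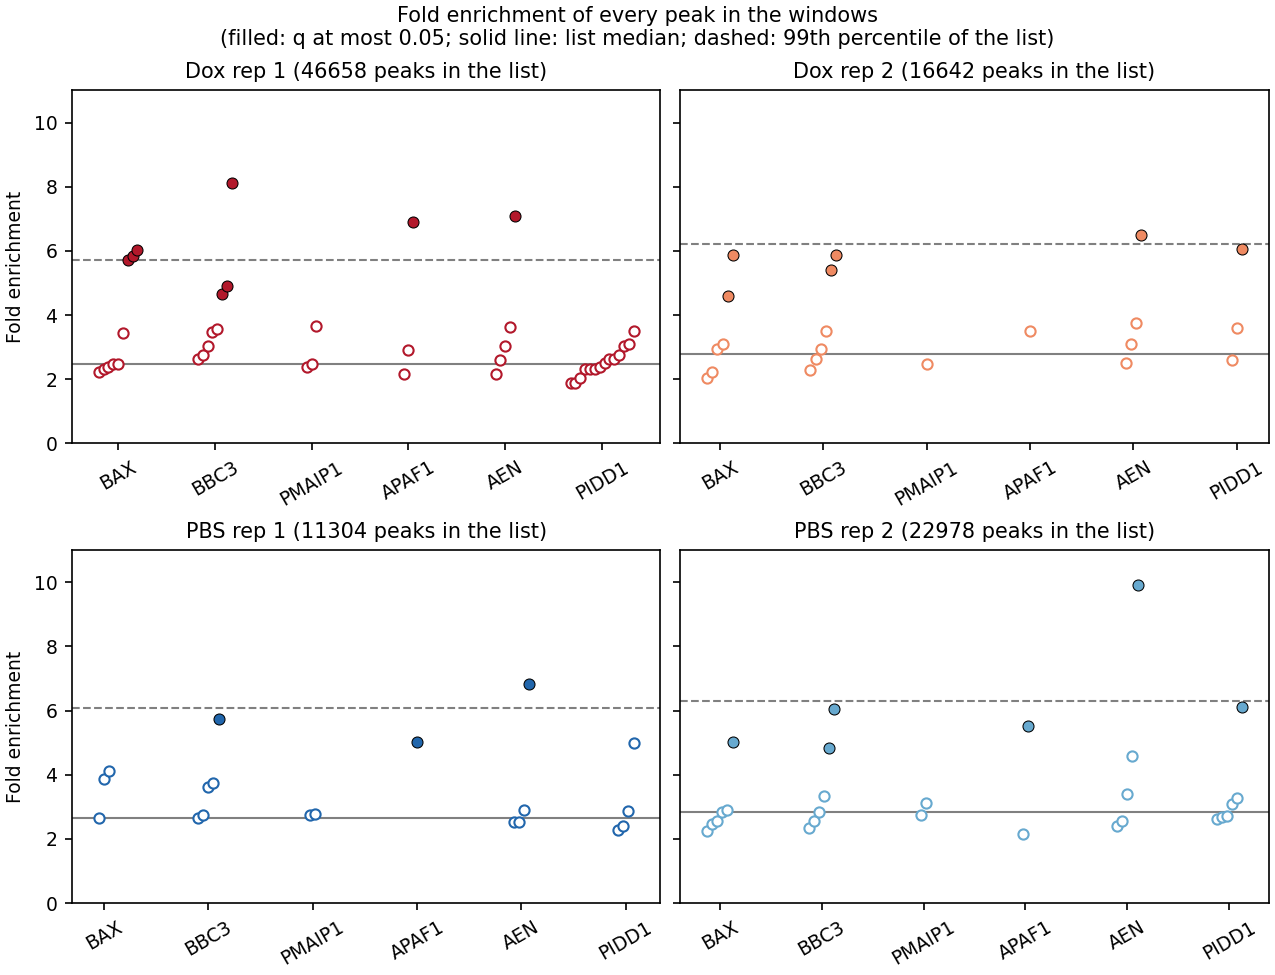
Fold enrichment (y axis) of every peak in each window (x axis), 1 panel per library, with filled points for a q of at most 0.05, a solid line at the list's median and a dashed line at its 99th percentile. A few filled points stand well above the median line in each panel, and most open points lie nearer to it. Some open points also stand high, such as PIDD1 at 4.98 for PBS 1 and AEN at 4.57 for PBS 2. PMAIP1 has no filled point in any library.

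When peaks of the 4 lists that shared at least 1 bp were merged, 10 of the 50 sites (20.0%) were found in all 4 libraries, against 6.01% of all sites. These were 3 at BBC3, 3 at AEN, 2 at BAX, 1 at APAF1 and 1 at PIDD1. Sites of a single library numbered 25 of the 50, against 72.5% of all sites, and 17 of these came from Dox 1. Both Dox lists but no PBS list held 2 sites (4.0%), 1 at BAX and 1 at PIDD1, near the background of 3.11%. The Dox summits lay 518 bp apart at the BAX site and 169 bp apart at the PIDD1 site. With summits chained within 150 bp in place of overlapping peaks, both sites split into places of 1 library each. This alternative was added after the data were seen, and the PIDD1 distance was close to its limit. The 2 places with summits of both Dox lists alone were then others, at AEN (89179989 to 89180072) and at BBC3 (47732139 to 47732278). None of these peaks had a q of 0.05 or less. At AEN a PBS 1 peak, with its summit at 89180228, overlapped both Dox peaks. At BBC3 a PBS 1 peak, with its summit at 47732848, overlapped the Dox 2 peak but not the Dox 1 peak. It began at 47732284, to the right of both Dox summits. Both PBS lists but no Dox list held 0 sites, against 0.928%. A q of at most 0.05 in at least 1 library was reached by 8 sites (16.0%), against 3.79%, and in all 4 libraries by 2 sites (4.0%), against 0.322%. Of the 8 sites, 1 reached that q in both Dox libraries and in no PBS library, against 3.97% of all sites that reached it anywhere.

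BAX, the pore-forming effector, had 3 sites that reached a q of at most 0.05 in a library. The first, chr19:49458269-49458908, was found in all 4 libraries, with summits within 68 bp. Its fold was 5.84 for Dox 1, 4.58 for Dox 2, 3.87 for PBS 1 and 5.02 for PBS 2, so the conditions overlapped. Ranked by p it stood within the first 1.13%, 3.74%, 9.28% and 3.23% of the lists in that order. The q was at most 0.05 in all but PBS 1.

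The middle BAX site, chr19:49464718-49466029, was the 1 site to reach that q for Dox 1 and Dox 2 and for no PBS library. Its fold was 6.02 for Dox 1 and 5.89 for Dox 2, with a −log10 q-value of 3.40 and 3.32. PBS 1 had no peak there, and PBS 2 had a peak of 2.85, equal to its list's median. By p it ranked 585 of 46658 for Dox 1, 315 of 16642 for Dox 2 and 14020 of 22978 for PBS 2. The summits of these 3 peaks lay within 24 bp of each other, 7027 to 7062 bp to the right of the first site's summits. Which gene the middle site belongs to was not determined. With every list limited to its 11304 strongest peaks, the site was left in both Dox lists and dropped out of the list of PBS 2. It is 1 site with 2 libraries a condition, and 96 sites of the genome showed the same pattern of q-values.

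A further BAX site, chr19:49468374-49469873, spans position 49468566 of FTL, the ferritin light chain gene, which is the next protein-coding gene after BAX in the RefSeq order. Which gene the site belongs to was not determined. The lowest summit of the middle BAX site lay at -3028 bp from that position, nearer than to the first BAX site. The peaks nearest that position had a fold of 5.72 for Dox 1, 2.05 for Dox 2, 4.12 for PBS 1 and 2.24 for PBS 2. The libraries numbered 1 were thus the higher ones here in both conditions, and the q was at most 0.05 for Dox 1 alone.

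The other BAX sites in at least 2 libraries had no q of 0.05 or less. The site chr19:49466581-49467246 was found for Dox 1 (3.43) and Dox 2 (2.95) and in no PBS list, but its summits lay 518 bp apart. The sites chr19:49457330-49458076 (2.47 and 2.91) and chr19:49470452-49470876 (2.37 and 2.54) were found for Dox 1 and PBS 2.

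BBC3, which encodes the BH3-only protein PUMA, held the peak with the highest fold of the 6 windows in Dox 1. Its main site, chr19:47734546-47736156, contained 2 summit positions that recurred in all 4 libraries. At the lower one, with summits from 47734682 to 47734729, the fold was 8.10 for Dox 1, 5.89 for Dox 2, 5.72 for PBS 1 and 4.84 for PBS 2. All 4 values had a q of at most 0.05. At the upper one, with summits from 47735776 to 47735867, the fold was 4.65 for Dox 1, 5.40 for Dox 2, 2.73 for PBS 1 and 6.05 for PBS 2. The PBS libraries were both the lowest and the highest there, so the order of the libraries differed between positions about 1 kb apart.

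The other BBC3 sites were weaker. The site chr19:47731955-47733600 had a fold of 4.90 for Dox 1, 3.50 for Dox 2, 3.62 for PBS 1 and 3.34 for PBS 2. Its q was at most 0.05 for Dox 1 alone. The summits were spread over 355 bp, with PBS 1 at 47732848 and the other libraries from 47733175 to 47733203. The site chr19:47744516-47746343, at the right edge of the window, had 3.57 for Dox 1, 2.30 for Dox 2, 3.75 for PBS 1 and 2.33 for PBS 2. The libraries numbered 1 were again the higher ones in both conditions. The site chr19:47736235-47736501 was found for Dox 2 (2.95) and PBS 2 (2.85). In the RefSeq order BBC3 lies between SAE1 and CCDC9, and no peak was assigned to either.

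PMAIP1, which encodes the BH3-only protein NOXA, had the lowest leading fold of the 6 windows in Dox 2, PBS 1 and PBS 2. That fold was 3.65 for Dox 1, 2.47 for Dox 2, 2.78 for PBS 1 and 3.11 for PBS 2. None of its 8 peaks had a q of 0.05 or less. The leading site, chr18:57567136-57567626, was found for Dox 1 (3.65), PBS 1 (2.73) and PBS 2 (3.11), with summits within 85 bp. The highest fold of PBS 1 (2.78) was at another site, chr18:57572126-57572485, found in PBS 1 alone. Dox 2 had its only peak of the window, at 2.47, in a neighbouring site, chr18:57568121-57568528, that it shared with PBS 2 (2.75). The Dox libraries thus had no site in common at PMAIP1.

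APAF1, the scaffold of the apoptosome, had 3 sites in its long window and 1 shared by all libraries, chr12:99037770-99038645. Its fold was 6.90 for Dox 1, 3.50 for Dox 2, 5.03 for PBS 1 and 5.51 for PBS 2, so the PBS values lay between the Dox values. The q was at most 0.05 in all but Dox 2, and the 4 summits lay within 121 bp. The site chr12:99038898-99039238 beside it was found for Dox 1 (2.90) and PBS 2 (2.14). APAF1 lies between IKBIP and ANKS1B in the RefSeq order, and which gene the shared site belongs to was not determined.

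AEN, the apoptosis-enhancing nuclease, had the site with the lowest p of the 6 windows in Dox 2, PBS 1 and PBS 2. At chr15:89164026-89165177 the fold was 7.10 for Dox 1, 6.48 for Dox 2, 6.83 for PBS 1 and 9.92 for PBS 2. The highest value was from a PBS library and the other PBS value lay between the Dox values, so the conditions overlapped. By p the site ranked 231, 186, 103 and 88 in that order, within the first 0.383% to 1.12% of every list. Its 4 summits lay within 32 bp. Of the 2576 sites of the genome with 1 peak in each library, 7.38% had a smaller summit range, and the median range was 148 bp. Among the 140 of them with a q of at most 0.05 in all 4 lists the median was 39.5 bp, so the AEN range was near that of other strong sites.

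To the right, AEN had a group of weaker peaks with no q of 0.05 or less. The site chr15:89181835-89182459 had a fold of 3.64 for Dox 1, 3.76 for Dox 2, 2.90 for PBS 1 and 4.57 for PBS 2, with summits within 73 bp. The site chr15:89179812-89181191 was also counted in all 4 libraries, at 2.51 to 3.04, but its summits were spread over 1063 bp. The site chr15:89181419-89181716 was found for Dox 2 (3.09) and PBS 2 (3.39), and chr15:89163643-89163984, beside the main site, for Dox 1 (2.60) and PBS 1 (2.51). In the RefSeq order AEN lies between DET1 and ISG20, and no peak was assigned to either.

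PIDD1, the scaffold of the caspase-2 platform, had 1 site with a low q in a window of many weak ones. At chr11:804122-804762 the fold was 3.09 for Dox 1, 6.05 for Dox 2, 4.98 for PBS 1 and 6.10 for PBS 2, with summits within 56 bp. By p the site stood at 12.8% of the Dox 1 list and within the first 2.79% of the others. Its q was at most 0.05 in the libraries numbered 2 of both conditions. PBS 1 fell just short of that limit, with a −log10 q-value of 1.26, against 0.087 for Dox 1. Dox 1, where the site ranked lowest, had 14 peaks in the window, against 3 for Dox 2, 4 for PBS 1 and 6 for PBS 2.

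The other PIDD1 sites in at least 2 libraries were weak. The site chr11:812090-812756 was found for Dox 1 (3.51) and Dox 2 (2.60) and in no PBS list, with summits 169 bp apart. The site chr11:809546-810131 was found for Dox 1 (2.50), Dox 2 (3.60) and PBS 2 (3.10). The site chr11:796796-798015 was found for Dox 1 (3.03) and PBS 2 (2.63). Dox 1 and PBS 1 shared chr11:790647-790999 (2.03 and 2.27) and chr11:810290-810548 (2.62 and 2.39). In the RefSeq order PIDD1 lies between PANO1 and RPLP2, a ribosomal protein gene, and peaks were not assigned among them.

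**Figure D4:**
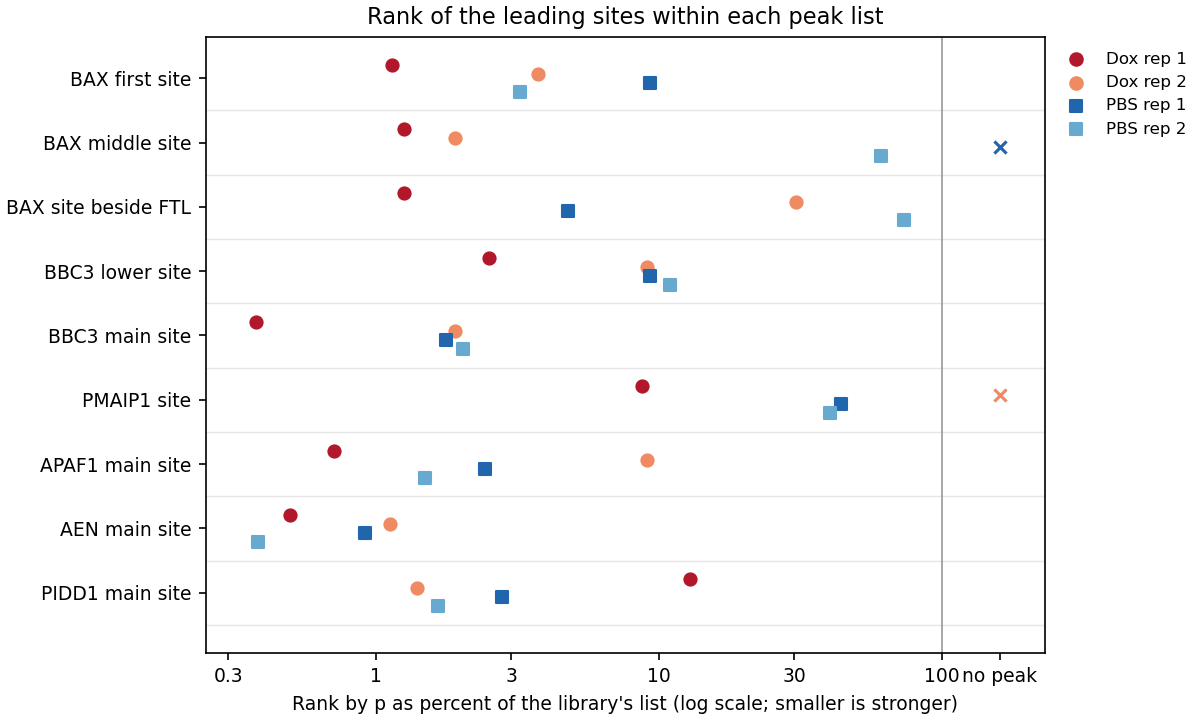
Rank by p as a percentage of each library's list (x axis, log scale, smaller is stronger) of the 8 sites with a q of at most 0.05 in any library and of the leading PMAIP1 site, with circles for Dox and squares for PBS and a cross where the library has no peak. At the middle BAX site the Dox points lie at 1.25% and 1.89% and the PBS 2 point at 61.0%, while the 4 AEN points lie between 0.383% and 1.12%. Each point is the library's peak with the smallest p in the site. At the main BBC3 site this is at the upper position for PBS 2, which ranked at 4.76% at the lower one, and at the lower position for the other libraries. At the site beside FTL, the Dox 2 and PBS 2 points are not the peaks nearest the FTL position.

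Ordered by the highest fold in each list, AEN came first for Dox 2, PBS 1 and PBS 2, and BBC3 came first for Dox 1, with AEN next. PIDD1 came next after AEN for Dox 2 and PBS 2 and last for Dox 1. BAX stood above PIDD1 for Dox 1 and tied with BBC3, at 5.89, for Dox 2. In both PBS lists BAX stood above PMAIP1 alone. Its leading peak was at the middle site in the Dox lists, at the first site for PBS 2 and beside FTL for PBS 1. Since each list has its own scale, these orders are given as a description.

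In the authors' deposited tables of peaks matched between replicates, every pair carries its irreproducible discovery rate (IDR), the authors' measure of how well the pair reproduced, with lower values for better pairs. In the authors' deposited table for Dox, 14 pairs lay in the windows and 7 of them had an IDR of at most 0.05, against 27.5% of all pairs. In the authors' deposited table for PBS, 12 pairs lay in the windows and 4 (33.3%) had such an IDR, against 15.0%. The 4 PBS pairs were 1 each at BBC3, APAF1, AEN and PIDD1. The 7 Dox pairs were 2 at BAX, 2 at BBC3 and 1 each at APAF1, AEN and PIDD1. PMAIP1 had no Dox pair and 1 PBS pair, with an IDR of 0.538 in the authors' deposited table.

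AEN had the lowest IDR of the 6 windows in both of the authors' deposited tables, 5.93e-06 for Dox and 2.74e-05 for PBS. For APAF1 the authors' deposited tables gave 0.000189 for Dox and 0.000822 for PBS, and for the main PIDD1 site 0.000378 and 0.000999. For the main BBC3 site the authors' deposited table gave 7.63e-05 for a Dox pair that joined both summit positions, and for PBS 0.00813 at the lower and 0.475 at the upper position. At BAX the authors' deposited table for Dox gave 6.45e-05 at the middle site, 0.000994 at the first and 0.0628 beside FTL. In the authors' deposited table for PBS the first BAX site had 0.105, the site beside FTL had 0.630 and 0.0974, and the middle site had no pair. Each condition has 1 table, made from lists of unequal length, so the difference between conditions was not tested.

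**Figure D5:**
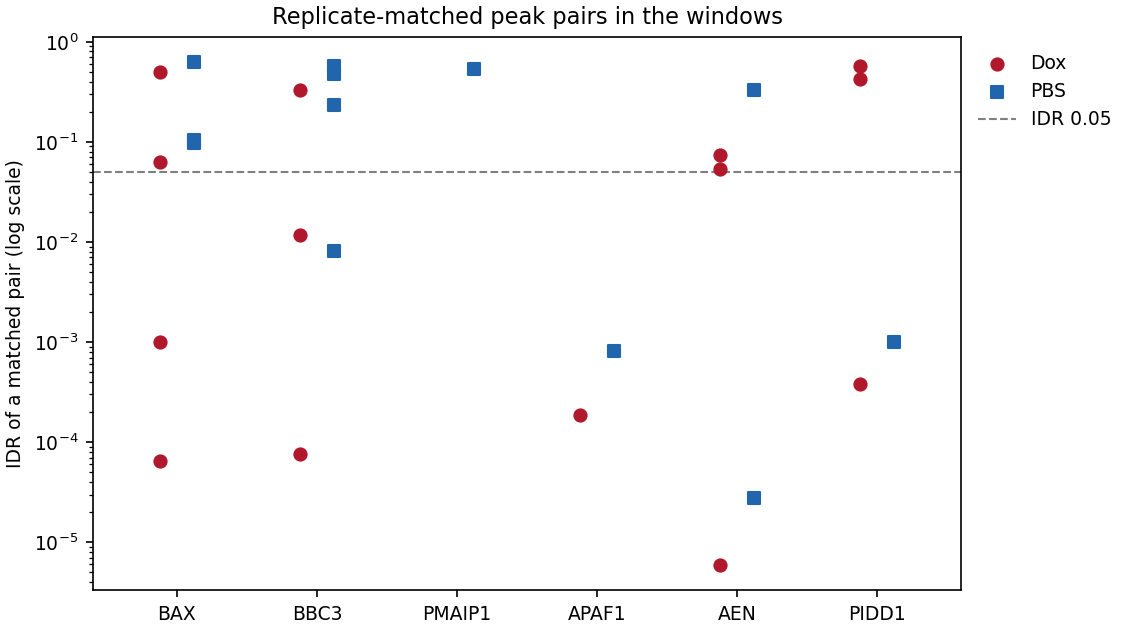
IDR (y axis, log scale) of every replicate-matched pair in each window (x axis), with circles for Dox and squares for PBS and a dashed line at 0.05. BAX has 2 Dox pairs under the line and no PBS pair under it, and PMAIP1 has 1 point, from PBS, above it.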

How the data were processed

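BWA and MACS2 on hg19 are named by the submitters' processing notes, and the sources used here give no versions. Peaks were deposited as 1 list per ChIP library, and the peak names state a threshold of p under 0.05. Each deposited peak has a fold enrichment (a ratio over local background), a −log10 p-value and q-value, and a summit coordinate. The authors also deposited 1 table of replicate-matched pairs per condition, with −log10 p-values and with the IDR as a fraction (the local IDR was not used).

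Peaks sharing at least 1 bp were merged into sites over the genome. Where a library had several peaks in a site, that with the smallest p was used, and ranks by p give ties their best rank. Sites in the windows were named if found in at least 2 libraries or with a q of at most 0.05 in any. The merging and motif steps were tested on simulated data, with isolated sites of at most 1 peak per library and with exact motifs. The chaining of neighbouring peaks and motifs with letters off were not tested in this way. No hg19 genome or annotation was used, so peaks were not placed in exons, introns or UTRs, and the planned motif search under peaks and count over other apoptosis genes were not run. The promoter search was added after the data were seen. The members, lists and tests were chosen with earlier results of these data known. Python 3.11.15, numpy 2.4.6, pandas 2.3.3 and matplotlib 3.10.9 were used.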

Additional observations from a re-analysis of the deposited data

Results flagged for a closer look

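The number of peaks, Dox minus PBS, took opposite directions in the libraries numbered 1 and those numbered 2, for the 6 windows together and for 4 of them alone. Over the 6 windows it was 23 within number 1 and -6 within number 2. At PIDD1 it was 10 and -3, at APAF1 2 and -1, at PMAIP1 1 and -1 and at AEN 1 and -1. At BAX and BBC3 it was 6 and 3 within number 1 and 0 within number 2. Each value rests on 1 library per condition, and whether the numbers differ was not tested. Dox 1 had the longest list and PBS 1 the shortest (46658 and 11304 peaks). With every list limited to 11304 peaks, the difference over the 6 windows was -1 within number 1 and 3 within number 2, so the opposite directions of the full lists turned around.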

How the results depend on the processing

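Taken by replicate block, the difference in peaks (8.5 overall) was 23 within number 1 and -6 within number 2 (SD of the 2 differences 20.5); no blocked model was fitted, since no p is given for a count over chosen windows. With lists of 11304 peaks the difference was 1.0, and with peaks at a q of at most 0.05 it was 2.5. Leaving out 1 library at a time gave -2.0 (without Dox 1) to 19 (without Dox 2). In the same way, the sites of both Dox lists but no PBS list (2 as reported) ran from 2 to 20, the highest without Dox 2, with 4 without PBS 2. The sites of both PBS lists but no Dox list (0 as reported) ran from 0 to 4, with 1 without Dox 1, 4 without PBS 1 and 3 without PBS 2. By construction a condition is then judged by its remaining list. With peaks limited to a q of at most 0.05, 2 windows and 2 sites were left in all 4 libraries, and 1 site, the middle BAX site, in both Dox lists alone. Merging only peaks that shared at least 0.5 of the shorter peak gave 1 site in both PBS lists but no Dox list. Chaining summits within 150 bp, an alternative added after the data were seen, did so too. Both were at BAX, and the chained summits lay from 49469236 to 49469355 (fold 2.64 for PBS 1 and 2.47 for PBS 2). Under the reported merging, these PBS peaks overlapped the edges of Dox peaks and were counted in the site beside FTL. The chaining left 2 places with summits of both Dox lists alone, but at AEN and BBC3 and not the reported sites at BAX and PIDD1. A PBS 1 peak overlapped both of the Dox peaks at the AEN place, but only that of Dox 2 at the BBC3 place. Of 63 alternative values, 51 kept counts within 1.5 times, or the difference in peaks positive and within the wide SD of the Dox libraries (14.8), which allows the values from 1.0 to 23 above. The motif search under peaks and the count over other apoptosis genes were not run, since no hg19 genome or annotation was used. Depth is not given, which limits what absence from a list means.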
